A study of Gallus gallus with 2 samples.

Results

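Voltage-gated and potassium ion channels were read in the prosencephalon of chick embryos in which Notch signalling was blocked, and in their solvent controls. The members were all genes whose symbol in the annotation of the array began with *KCN*, *CACN*, *SCN* and a digit, or *HCN* and a digit, with the brightest probe standing for each gene. They were 56 genes of 29107 on the array, covered by 90 of 43603 probes. Isa Brown embryos taken at Hamburger and Hamilton stage HH10 were grown for 16 hours in roller tubes with 40 µM DAPT, an inhibitor of the γ-secretase that releases the active form of the Notch receptor, or with DMSO, its solvent. The prosencephalon was dissected at about HH13, 5 prosencephalons of a culture were pooled for each RNA, and 4 pools of each condition were hybridized to 1-colour Agilent arrays. No genotype is given for either condition. The dissected piece lay rostral to the mesencephalon and held the hypothalamic primordium, so a value is an average over all tissues of that piece.

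Ion channels set the membrane voltage of a cell. Potassium channels let potassium leave and hold the resting voltage or end an action potential, voltage-gated sodium channels start the action potential, and voltage-gated calcium channels turn it into calcium entry and transmitter release. Many channels are built from pore-forming subunits and accessory subunits that change their gating or their delivery to the surface. In the embryonic nervous system channel expression is known to be acquired step by step as neurons leave the cell cycle, and resting potassium and calcium currents are also found in dividing cells.

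Each of 2 slides carried arrays of both conditions, numbers 1 and 2 on slide 1 and numbers 3 and 4 on slide 2. All values are the log2 of the spot signal minus the median of the array, so 0 is the median probe, and the signals of different probes are not comparable as transcript amounts. Between 67.8% and 80.8% of probes were well above background on DAPT arrays and between 74.4% and 78.7% on DMSO arrays, with the lowest share on DAPT array 2. *HES5*, a direct Notch target that reports on the treatment, had -2.28, -2.97, -5.31 and -3.35 on the DAPT arrays, against 2.43, 2.36, 1.99 and 2.62 on the DMSO arrays. The groups were far apart, with a log2 difference of -5.83 (SE 0.53; limma, adjusted p = 0.0035), but the probe was well above background on only 1 of the 4 DAPT arrays, so the difference is not a measured fold. Of the 10 neuronal markers on the array, 9 were tested and 2 of them rose without a block, 4 with slide as a block and 5 with a block for the array number. The summed signal of the 10, in multiples of the array median, was 298.0 to 357.0 on DAPT arrays and 147.0 to 200.0 on DMSO arrays. Bright probes weigh most in this sum, which is not a transcript amount. The log2 fold changes of the 9 ran from -0.17 for *TUBB3* to 2.22 for *NEFM*, with a median of 1.19. In *TUBB3*, *SYT1* and *DCX* the groups overlapped, so the sum does not stand for every marker of the list. The part of the neuronal shift in any channel result was not tested.

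Of the 56 channel genes, 47 were well above background on all 4 arrays of a condition and were tested. *KCNH5*, an ether-a-go-go type voltage-gated potassium channel, had the largest difference in either direction and was 1.97-fold lower with DAPT, though its condition means were level under 1 alternative background correction. It was the only channel gene that passed the test in the fits with a block for slide or array number, and that call rests on the filter for dim probes. No channel gene passed without one. The pore of the large-conductance calcium-activated channel, *KCNMA1*, and the inward rectifier *KCNJ15* had the largest positive differences between DAPT and DMSO, and neither passed in any fit. Since each RNA came from mixed tissue, fewer cells that express a channel and less RNA of it per cell cannot be told apart.

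Without a block, limma called 0 of the 47 higher, against 0.108% of all 19363 tested genes, and 0 lower, against 0.0362% of all genes (Benjamini-Hochberg adjusted p under 0.05 over all tested probes). An unadjusted p under 0.05 was reached by *KCNMA1* and *KCNH5*, 4.26% of the 47, against 2.56% of all genes. With slide as a block, 0 channel genes were higher, against 0.362% of all genes, and 1 was lower, against 0.134%. In that fit 10 of the 47 (21.3%) had an unadjusted p under 0.05, against 6.60% of all genes. The channel genes share the same 8 arrays and are not independent of each other, so no test was made of these shares. The median log2 fold change of the 47 was 0.05 and that of all tested genes was -0.01, and 31 of the 47 had a positive value (66.0%), against 47.4% of all genes. Signs were taken before rounding, and *KCNRG* and *KCNS1*, counted as positive, round to 0.00.

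**Figure D1:**
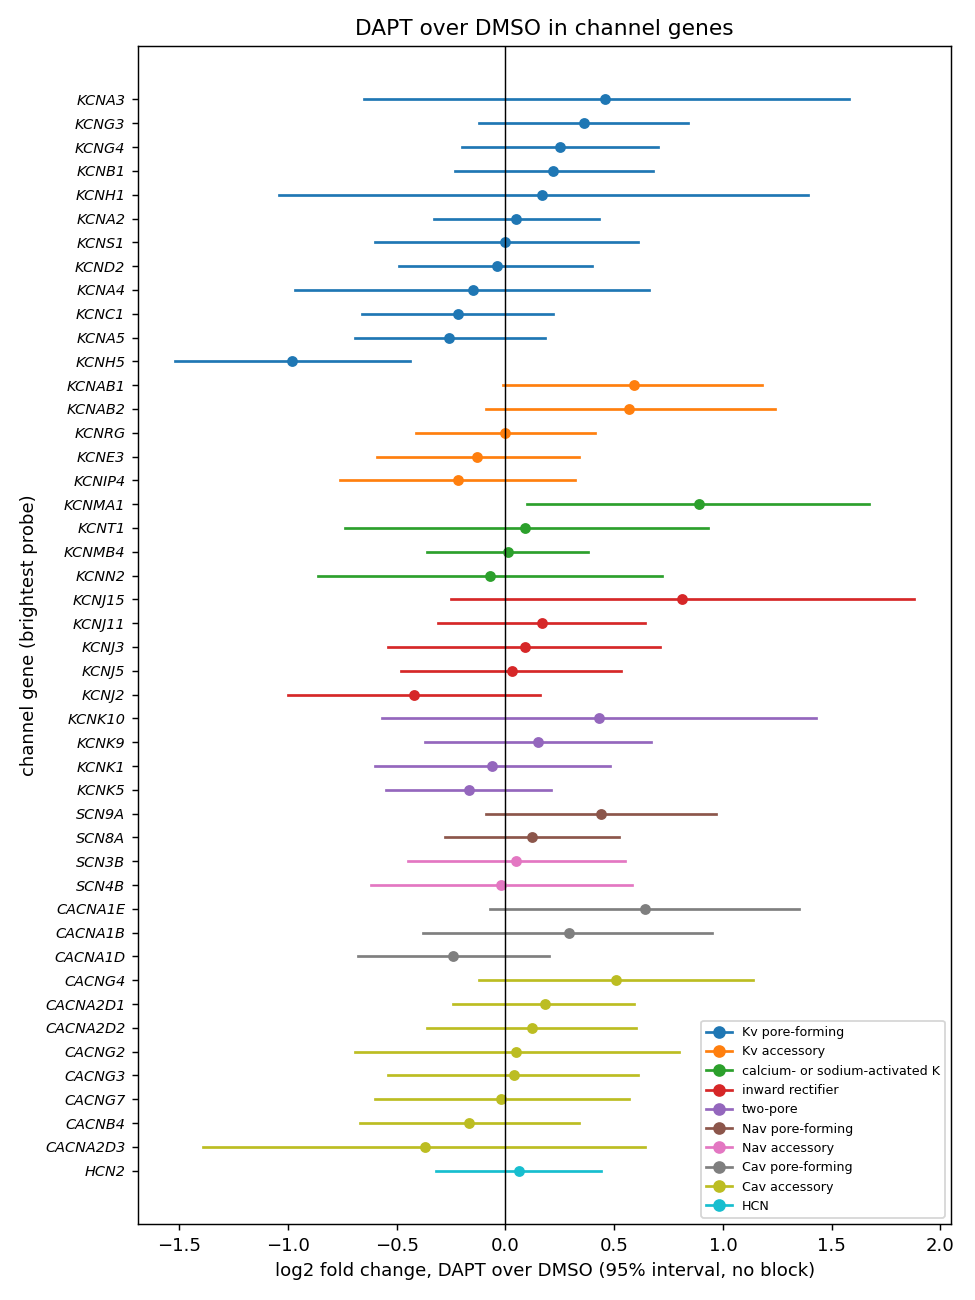
The log2 fold change of DAPT over DMSO in the tested channel genes that are reported by name is plotted on the horizontal axis with its 95% interval from limma without a block (n = 4 arrays each), and genes run down the page by subfamily. Only *KCNH5* and *KCNMA1* have intervals that leave out 0. With a model-based background correction *KCNH5* was at 0.00 and 20 of the 47 rounded values changed sign. The 20 leave out *KCNH5* and *KCNRG*, which also changed sign before rounding but round to 0.00 in a setting. The share of all genes that changed sign was not counted.

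The voltage-gated potassium channels were the largest subfamily, with 17 pore-forming genes, of which 12 were tested. Before rounding, 7 had a positive value, with *KCNS1* among them, and 5 a negative value. The median was 0.03. *KCNH5* had -2.06, -2.13, -1.53 and -1.73 on the DAPT arrays, against -1.30, -1.13, -0.69 and -0.40 on the DMSO arrays. Every DAPT array lay below every DMSO array, which held for no other channel gene, and for 0.961% of all genes. The log2 fold change was -0.98 (SE 0.24, 95% interval -1.52 to -0.44; DAPT mean -1.86 ± 0.28, DMSO mean -0.88 ± 0.41, SD, n = 4 each). The exact permutation test over the 70 splits of the 8 arrays gave p = 0.0286, two-sided, the smallest that 4 against 4 arrays allow.

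The adjusted p of *KCNH5* in limma was 0.546 without a block, 0.0102 with slide as a block and 0.0126 with a block for the array number, so the call rests on taking out the shift between slides. Its 4 arrays of slide 2 were higher than those of slide 1 in both conditions, by 0.57 on the log2 scale (adjusted p = 0.00891, limma). Within slide 1 the difference between DAPT and DMSO was -0.88, and within slide 2 it was -1.08. With slide as a block and 1 array left out, the value stayed between -1.03 and -0.90, and the adjusted p was 0.0513 without DMSO array 2 and 0.0432 or less without any other array. The gene has 1 probe, which was well above background on all DMSO arrays and on all DAPT arrays but DAPT array 2, so it entered the test only through DMSO, where it was higher. Where all 8 arrays had to be above background it was not tested, and with no filter and slide as a block, a setting chosen after seeing the data, its adjusted p was 0.0612. A background correction by a fitted model (normexp) gave a log2 fold change of 0.00, with or without slide as a block. There *KCNH5* had -1.35, -0.22, -0.31 and -0.80 on the DAPT arrays, against -0.90, -0.77, -0.65 and -0.37 on the DMSO arrays. DAPT arrays 2 and 3 thus lay above all DMSO arrays and the other DAPT arrays below those of their slide. In that setting the spread of all probes was 1.52 on DAPT array 2 and 1.66 on DAPT array 3 (SD, log2), against 2.14 and 2.39 on the other DAPT arrays and 2.34 to 2.69 on the DMSO arrays, and the median of all genes shifted by -0.34.

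*KCNH1*, the close relative of *KCNH5* in the ether-a-go-go family, was not called. It had -1.04, -0.91, -2.02 and -2.60 on the DAPT arrays, against -0.96, -0.79, -2.80 and -2.72 on the DMSO arrays, and its log2 fold change of 0.17 had a 95% interval of -1.04 to 1.39. The slides lay far apart in it, with slide 2 below slide 1 by 1.61, the largest slide difference among the channel genes. *KCNA3*, a delayed rectifier of the Shaker family, was the brightest probe of the pore-forming group. It had 3.93, 4.36, 3.06 and 3.24 on the DAPT arrays, against 4.05, 4.15, 2.03 and 2.50 on the DMSO arrays. The conditions were level on slide 1, with a difference of 0.04, and apart on slide 2, with 0.89, and the gene did not pass in any fit (log2 fold change 0.46, SE 0.50; adjusted p = 0.852 with slide as a block). *KCNA5*, another Shaker relative, had -0.26 (SE 0.19), and *KCNC1*, a channel of fast-spiking neurons, had -0.22 (SE 0.20). The other 7 tested genes lay between -0.15 for *KCNA4* and 0.36 for *KCNG3*, and the modifier subunits *KCNG3*, *KCNG4* and *KCNS1*, which form no channel on their own, had 0.36, 0.25 and 0.00. Dimmer probes differed from these values, and none was called. A second *KCNA4* probe had -0.89, with -0.04 on slide 1 and -1.75 on slide 2. Further *KCND2* probes had -0.41 and -0.58, and a second *KCNA5* probe had 0.09.

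Accessory subunits of the voltage-gated potassium channels numbered 6, and 5 were tested. Both cytoplasmic β subunits, which bind the Shaker pores, had values above the 1.3-fold mark. *KCNAB1* had 3.65, 3.96, 4.78 and 4.34 on the DAPT arrays, against 3.32, 3.34, 3.81 and 3.92 on the DMSO arrays. DAPT was above DMSO in each of the 4 same-number pairs, while the groups overlapped, since DAPT array 1 lay below both DMSO arrays of slide 2. The log2 fold change was 0.59 (SE 0.27, 95% interval -0.01 to 1.18), with an adjusted p of 0.266 with slide as a block, and a second probe gave 0.53, but under normexp the value was -0.06. *KCNAB2* had -0.98, -1.76, -1.47 and -0.96 on the DAPT arrays, against -1.73, -1.48, -2.67 and -1.56 on the DMSO arrays. The groups overlapped, and the difference of 0.57 (SE 0.30) was 0.24 on slide 1 and 0.91 on slide 2, with DMSO array 3 the lowest of the 8. *KCNIP4*, a calcium sensor that binds A-type channels, had -0.22 (SE 0.24). *KCNE3*, a single-pass subunit, had -0.13, and *KCNRG*, a soluble protein that in human cells hinders Shaker channel assembly, had 0.00.

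**Figure D2:**
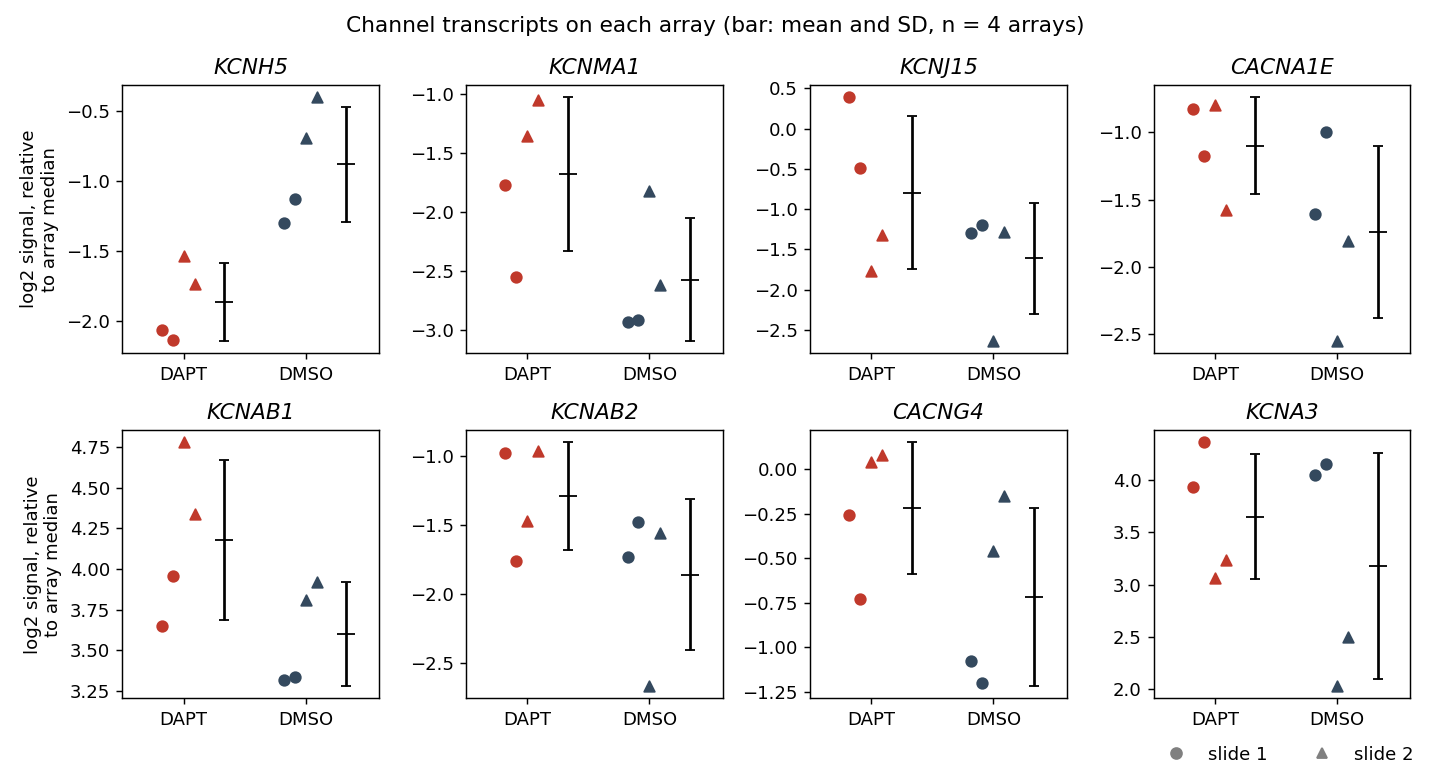
Each panel plots the log2 signal of 1 channel gene relative to the array median on the 4 DAPT and 4 DMSO arrays, with circles for slide 1, triangles for slide 2 and a bar for the mean and SD. The DAPT arrays of *KCNH5* all lie below its DMSO arrays, while the groups overlap in the other 7 genes. Under normexp *KCNH5* was at 0.00, *KCNAB1* at -0.06 and *KCNA3* at -0.13.

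Among the calcium- or sodium-activated potassium channels 4 of 5 genes were tested. *KCNMA1*, which couples calcium entry to repolarization, had -1.77, -2.55, -1.36 and -1.05 on the DAPT arrays, against -2.93, -2.91, -1.82 and -2.62 on the DMSO arrays. DAPT was above DMSO in all 4 same-number pairs, by 0.76 on slide 1 and 1.02 on slide 2. The groups overlapped only in that DAPT array 2 lay below DMSO array 3. On DAPT array 2 the probe was not well above background. The log2 fold change was 0.89 (SE 0.35, 95% interval 0.10 to 1.67), the largest positive value of all channel genes, with an unadjusted p of 0.0303 in limma and an exact permutation p of 0.0571. The adjusted p was 1 without a block, 0.214 with slide as a block and 0.125 with a block for the array number. Its accessory subunit *KCNMB4* had 0.01 (SE 0.17). *KCNN2*, a small-conductance calcium-activated channel, had -0.07 (SE 0.35), and the sodium-activated *KCNT1* had 0.09 (SE 0.37).

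All 5 inward rectifiers, which hold the resting voltage, were tested, and 4 had positive values. *KCNJ15* had 0.39, -0.49, -1.77 and -1.32 on the DAPT arrays, against -1.30, -1.20, -2.64 and -1.29 on the DMSO arrays. The groups overlapped, with a log2 fold change of 0.81 (SE 0.48), of 1.20 on slide 1 and 0.42 on slide 2. DMSO array 3 stood well below the other DMSO arrays, and the value was 0.47 without it and 0.41 without DAPT array 1. *KCNJ2*, the classical strong rectifier, had -0.72, -0.78, -1.66 and -1.57 on the DAPT arrays, against -0.71, -0.71, -1.11 and -0.52 on the DMSO arrays. The conditions were level on slide 1, with -0.04, and apart on slide 2, with -0.80 (log2 fold change -0.42, SE 0.26; adjusted p = 0.869 with slide as a block), and under normexp the value was 0.05. The G-protein-gated subunits *KCNJ3* and *KCNJ5* had 0.09 and 0.03, and *KCNJ11*, the pore of the ATP-sensitive channel, had 0.17.

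The tandem-pore potassium channels carry background leak. All 4 genes were tested, and their median was 0.04. *KCNK1* and *KCNK5* were among the 8 brightest channel probes. *KCNK1* had 3.73, 4.39, 4.68 and 4.25 on the DAPT arrays, against 4.05, 4.08, 4.68 and 4.50 on the DMSO arrays, and its difference of -0.06 had a 95% interval of -0.60 to 0.48. *KCNK5*, an acid-sensitive leak channel, had 3.73, 4.08, 3.92 and 3.77 on the DAPT arrays, against 3.91, 3.91, 4.23 and 4.11 on the DMSO arrays, with a difference of -0.17 and an interval of -0.55 to 0.21. In both genes the groups overlapped and a 2-fold change lay outside the interval. Under normexp, though, *KCNK1* was at -0.73 and *KCNK5* at -0.77 (adjusted p = 0.142 each, limma). In that setting the median of all genes was -0.35, and 48.4% of all genes were at least 1.3-fold lower. *KCNK10*, a stretch-sensitive leak channel, had 0.43 (SE 0.45) and differed by 1.06 between the slides, and *KCNK9* had 0.15.

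Voltage-gated sodium channels gave 4 pore-forming genes, of which 3 were tested. None was called. *SCN9A* had a log2 fold change of 0.44, and *SCN8A*, a channel of the axon initial segment, had 0.12, which turned to -0.16 under normexp. *SCN9A*, known from sensory neurons, had -1.18, -1.07, -1.0 and -1.62 on the DAPT arrays, against -1.28, -1.53, -1.60 and -2.21 on the DMSO arrays. DAPT was the higher in all 4 same-number pairs and the groups overlapped (SE 0.24; adjusted p = 0.848 with slide as a block). The accessory subunits *SCN3B* and *SCN4B* had 0.05 and -0.02.

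Voltage-gated calcium channels gave 4 pore-forming genes, 3 of them tested. *CACNA1E*, the R-type pore, had -0.83, -1.18, -0.80 and -1.58 on the DAPT arrays, against -1.61, -1.0, -2.55 and -1.81 on the DMSO arrays. The groups overlapped, with a log2 fold change of 0.64 (SE 0.32), of 0.30 on slide 1 and 0.99 on slide 2, and an adjusted p of 0.735 with slide as a block. *CACNA1B*, the N-type pore of presynaptic release, had 0.29 (SE 0.30). *CACNA1D*, an L-type pore, had 1.55, 1.87, 2.25 and 1.86 on the DAPT arrays, against 2.0, 1.95, 2.34 and 2.20 on the DMSO arrays. It was the lower with DAPT in each same-number pair, but the difference of -0.24 (SE 0.20) was not called, and its 4 probes gave -0.51 to -0.03. Under normexp it was at -0.67, where the median of all genes was -0.35.

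All 8 accessory calcium channel genes were tested, with a median of 0.04. *CACNG4*, a transmembrane subunit that also accompanies AMPA-type glutamate receptors, had -0.26, -0.73, 0.04 and 0.08 on the DAPT arrays, against -1.08, -1.20, -0.46 and -0.15 on the DMSO arrays. The DAPT array was the higher in all 4 pairs and the groups overlapped (log2 fold change 0.51, SE 0.28; adjusted p = 0.463 with slide as a block). Its relatives *CACNG2*, *CACNG3* and *CACNG7* had 0.05, 0.04 and -0.02. *CACNG3* was the brightest of them, with 2.93, 3.74, 2.88 and 3.57 on the DAPT arrays, against 3.08, 3.66, 2.91 and 3.33 on the DMSO arrays. *CACNA2D3*, an extracellular accessory subunit, had -0.37 (SE 0.46), which was -0.02 on slide 1 and -0.73 on slide 2, and 0.54 under normexp. *CACNA2D1* and *CACNA2D2* had 0.18 and 0.12, and the cytoplasmic *CACNB4* had -0.17.

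*HCN2*, a hyperpolarization-activated pacemaker channel, was the only *HCN* gene among the members and its probe was the brightest of all channel genes. It had 4.42, 4.53, 4.82 and 4.78 on the DAPT arrays, against 4.41, 4.57, 4.68 and 4.64 on the DMSO arrays. The groups overlapped, with a difference of 0.06 and a 95% interval of -0.32 to 0.44, and the 3 probes gave -0.07 to 0.06. RefSeq lists the Entrez number of this gene under a provisional name, and for 3 others the symbol differs: *KCNK9*, *KCNK1* and *CACNG7* of the array stand in RefSeq as *KCNK3*, *KCNK7* and *CACNG5*.

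Without a test, 9 channel genes (19.1% of the 47) were at least 1.3-fold higher with DAPT, against 4.19% of all genes, and 2 were at least 1.3-fold lower (4.26%), against 4.72%. Under normexp the counts were 16 higher, against 13.5% of all genes, and 6 lower, against 48.4%, with a median of 0.17 over the channel genes and -0.35 over all genes. The higher ones were *KCNMA1*, *KCNJ15*, *CACNA1E*, *KCNAB1*, *KCNAB2*, *CACNG4*, *KCNA3*, *SCN9A* and *KCNK10*, and the lower ones were *KCNH5* and *KCNJ2*. None of the 9 had all DAPT arrays above all DMSO arrays, which held for 0.888% of all genes. DAPT was the higher in all 4 same-number pairs in 8 channel genes by rounded values, and before rounding also in *CACNA2D1*. The share of all genes, taken before rounding, was 6.57%. DAPT was the lower in all 4 pairs in 5 channel genes, against 7.23% of all genes. Single arrays moved several of these values by more than 1.5 times. Without DMSO array 3, *CACNA1E* had 0.38, *KCNAB2* had 0.30 and *KCNA3* had 0.08, and *KCNA3* ran up to 0.79 with another array left out. *KCNAB1* had 0.39 and *KCNJ2* had -0.26 without DAPT array 3, and *SCN9A* had 0.25 without DMSO array 4. The 95% intervals without a block lay within a 2-fold change in both directions for 35 of the 47. They reached a 2-fold rise in 9 genes and a 2-fold fall in 4, with *KCNH1* among both.

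Differences between the slides were called in more channel genes than treatment differences, as over all genes. The 2 slides held different pools, so a slide difference cannot be told apart from a difference between pools. Arrays of slide 1 had 311 to 382 saturated spots each and those of slide 2 had 0. The part of saturation in the slide differences was not tested. In the fit with both terms, slide 2 was higher than slide 1 in 9 channel genes (19.1%), against 25.1% of all genes, and lower in 12 (25.5%), against 18.0% (limma, adjusted p under 0.05). Slide 2 was higher by 1.06 in *KCNK10*, 0.91 in *KCNN2* and 0.83 in *KCNMA1*, and lower by 1.61 in *KCNH1*, 1.42 in *KCNA3* and 1.26 in *CACNA2D3*. Some markers of forebrain and of other tissues also differed between the slides. The forebrain and eye progenitor sum was 207 to 226 on DAPT arrays and 204 to 221 on DMSO arrays of slide 1. On slide 2 it was 314 to 387 on DAPT arrays and 356 to 358 on DMSO arrays. In that list *NKX2-1* was lower on slide 2 in both conditions. It went from 1.41 and 1.28 on slide 1 to 0.46 and 0.23 on slide 2 on the DAPT arrays. On the DMSO arrays it went from 1.49 and 1.65 to 0.90 and 1.02. The neuronal sum of DMSO arrays was 147 to 152 on slide 1 and 200 on slide 2, while that of DAPT arrays overlapped between slides. The summed blood signal was 115.0 to 229.0 times the array median on DAPT arrays and 185.0 to 251.0 on DMSO arrays of slide 1, and 6.10 to 20.9 on DAPT arrays and 4.56 to 7.12 on DMSO arrays of slide 2. The heart and muscle sum was 20.2 to 25.2 on DAPT arrays and 21.6 to 22.1 on DMSO arrays of slide 1, and 4.64 to 5.36 on DAPT arrays and 3.73 to 3.79 on DMSO arrays of slide 2. Its brightest probe, *MYH7*, had 3.69 and 4.18 on the DAPT arrays of slide 1 and 0.28 and 1.27 on those of slide 2. On the DMSO arrays it had 3.85 and 4.03 on slide 1 and 0.27 and 0.08 on slide 2. *NKX2-5* also fell, from 1.71 and 1.61 to -0.36 and -2.47. *ACTC1* overlapped between the slides, with 0.64 and 0.70 against 0.91 and -0.14 on the DAPT arrays, so the sum does not stand for every marker of the list. Their part in the slide differences of the channel genes was not tested. The slide difference was larger in size than the treatment difference in 35 of the 47. The treatment difference had the same sign on both slides in 28 genes, 19 of them positive and 9 negative, and different signs on the slides in the other 19. Shares over all genes were not counted for these sizes and signs, so they cannot be set beside the whole array. The slide by treatment term of limma had an unadjusted p under 0.05 in *KCNA3* (0.0329) and *KCNJ2* (0.0451), and in neither did it pass adjustment (adjusted p = 1). The median standard error of the treatment difference over the 47 genes was 0.24 without a block and 0.17 with slide as a block.

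**Figure D3:**
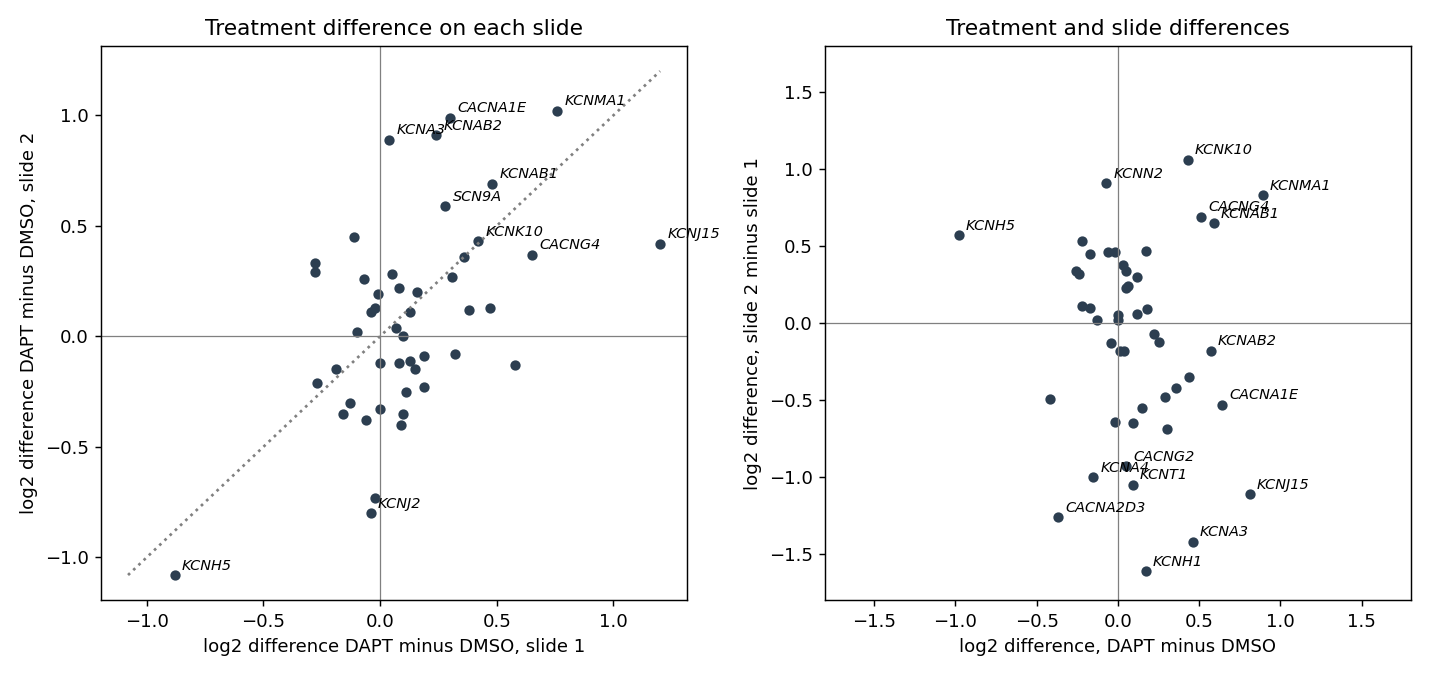
On the left, the difference between DAPT and DMSO in log2 units on slide 2 is plotted against that on slide 1 for the 47 tested channel genes, with a dotted line where they are equal. On the right, the difference between slides is plotted against the treatment difference. *KCNH5* lies at -0.88 and -1.08 on the left, while 35 of 47 genes have the larger difference between slides on the right. Under normexp 20 rounded treatment differences changed sign, without *KCNH5* and *KCNRG*, which changed sign only before rounding. Shares over all genes were not counted for the 35 and the 20.

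More than 1 tested probe was available for 18 channel genes, and in 11 of them all probes had the same sign. Of the 73 tested channel probes, 0 were called without a block and 1 with slide as a block, that of *KCNH5*. The 9 genes that were not tested included *CACNA1C*, *SCN2A*, *KCNA1*, *KCNG2*, *KCNIP2*, *KCNQ1* and *KCNT2*. The 9 were well above background on 3 to 6 of the 8 arrays, and none was so on all arrays of a condition. Of the tested genes 39 were well above background on all 8 arrays, and the other 8 on all arrays but 1, which was DAPT array 2 for 7 of them and DAPT array 4 for *CACNA2D3*.

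Of 53 channel partners and other ion channel genes outside the set, 33 were on the array and 26 were tested, and 0 passed the test in either direction without a block or with slide as a block. Their median log2 fold change was -0.11, and the lowest value was -0.66 (SE 0.47) for *RYR3*, an intracellular calcium release channel. The anchor of sodium channels *ANK3* had -0.17 (SE 0.31), and *REST*, a repressor of channel and other neuronal genes outside neurons, had -0.11 (SE 0.18). Among the marker lists of other cell types, none of the 11 tested forebrain and eye progenitor genes, 8 neural crest and mesenchyme genes, 6 endothelial, 6 heart and muscle, 6 surface ectoderm and lens, 4 blood and 2 hindbrain genes was called in either fit. The defining hindbrain genes *HOXA2* and *HOXB1* were above background on no array.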

How the data were processed

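Total RNA of 4 pools of each condition was hybridized to Agilent chicken 4x44K arrays in 1 colour. The authors deposited the scanner output of Agilent Feature Extraction 10.7.1.1, whose background-corrected spot intensity was not normalized between arrays. They also deposited tables of condition means, as raw intensity and as log2 signal after a shift to the 50th percentile, with their own fold changes; only the gene names and symbols of these tables were used.

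Control spots and outlier spots were dropped. The log2 signals of replicate spots were averaged, and each array was centred on its 50th percentile, following the methods. A probe was tested if 1 condition or both had it well above background on every array (31504 probes, 19363 genes) with limma 3.58.1 in R 4.3.3, two-sided, with Benjamini-Hochberg adjustment over all of them and no block. Single genes were also compared with an exact permutation test over the 70 splits. Array numbers were tried as a pairing. Deviations from the condition means correlated at 0.505 to 0.767 between same-number arrays, and at 0.419 to 0.675 between other arrays of the same slide. The correlations were widely apart only for number 3, with 0.767 against 0.462. The pairing comes from the array numbers alone and is not settled by these correlations, since same-number arrays also share a slide. Slide or array number as a block, other scalings (75th percentile, quantile, normexp with an offset of 50 on median signals, since the files hold no mean), other filters and arrays left out in turn were tried as alternatives. The rule for genes named with values took those called or not overlapping, the 8 highest and 8 lowest differences, the 8 brightest, and *HES5*; *KCNH1* and the other genes named beside these were chosen after their values were seen, to describe the subfamilies and partners. The members and lists were chosen with earlier results of these data known. The fits were tested on simulated data. Symbols were compared with RefSeq (assembly GRCg7b) and differed by Entrez number for 4 channel genes. A further 16 probes named as channels by accession alone were not members. Each pool came from 1 culture and 4 sets were collected; whether same-number pools of both conditions belong to 1 set is not given in the sources used here. The p-values measure the spread between pools, each read on 1 array. Without a block, and in the permutation test, that spread also holds the shift between slides. Some genes that entered the counts are not reported here by name.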

Additional observations from a re-analysis of the deposited data

Results flagged for a closer look

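In *KCNJ15*, DMSO array 3 lay far from the others, at -2.64, while the other 3 DMSO arrays were at -1.30 to -1.20 (log2, relative to the array median). It was the only 1 of 42 groups of 4 arrays checked in this way, and such a check marks about 5% of groups by chance.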

How the results depend on the processing

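The count of channel genes called higher stayed at 0 under every alternative run. The count called lower was 0 without a block, and 1 with slide as a block and with array number as a replicate block, which was *KCNH5* in both. The replicate block changed no other call of a channel gene. With slide as a block and an array left out, a setting chosen after seeing the data, the lower count ran between 0 and 1, with 0 without DMSO array 2. Channel genes with all DAPT arrays above all DMSO arrays numbered 0 as reported, 1 with the 75th percentile, 2 with quantile normalization, 4 with normexp and 5 with slide means removed (1.06%, 1.21%, 2.58% and 2.56% of all genes in these alternatives). Those with all DAPT arrays below numbered 1 as reported, 0 with quantile normalization, 0 where all arrays had to be above background, and 3 with normexp and 3 with slide means removed (1.08%, 0.837%, 10.4% and 2.76% of all genes). Normexp turned the log2 fold changes of *CACNA2D3* to 0.54, *CACNB4* to 0.32, *CACNG3* to -0.52, *HCN2* to -0.58, *KCNA3* to -0.13, *KCNA5* to 0.01, *KCNAB1* to -0.06, *KCNJ2* to 0.05, *KCNRG* to -0.56 and *KCNH5* to 0.00, also with slide as a block. The cause was not tested. Averaging probes put *KCNRG* at -0.03. With 1 array left out, *CACNA2D3* ran between -0.67 and 0.00, *CACNG3* between -0.12 and 0.17, *HCN2* between 0.00 and 0.13, *KCNK1* between -0.20 and 0.12 and *KCNRG* between -0.07 and 0.12. With 4 arrays a condition, the number of arrays limits what can be told apart, and dim probes such as *KCNH5* and *KCNMA1* lie close to background.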
